A study of Schizosaccharomyces pombe with 2 samples.

Results

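In the fission yeast Schizosaccharomyces pombe, 60 mRNAs had most of their small RNA reads outside their coding exons. They were chosen by their reads in wild-type (WT) cells: of 5118 mRNA genes on chromosomes I, II and III, 3649 averaged 50 reads or more over both libraries, and 60 of these had at least 80% of the WT reads of the gene outside the coding exons that the deposited table places within it on the same strand. The WT share is therefore a description of the choice and supports nothing. What lies outside the coding exons is the annotated leader before them, the introns and the trailer after them.

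The 2 libraries came from a strain deleted for exo2 (exo2Δ, YAM2397, carrying exo2Δ::kanMX4) and from WT (YAM2394), both grown exponentially in rich medium. Both strains also carried the markers ade6-M210, ura4-D18 and leu1-32, so the controls share them. Short RNAs were purified from total RNA on a gel and sequenced. Each strain had 1 library, so no difference between strains could be tested, and the intervals below cover counting error only.

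An mRNA leader lies between the cap and the start codon and is read by the scanning ribosome, and a trailer holds signals for polyadenylation, localization and decay. Exo2, called Xrn1 in budding yeast and animals, digests decapped RNA from its 5′ end in the cytoplasm. XUTs are long noncoding RNAs, a class the study built from transcripts that build up when this enzyme is missing. A short RNA read inside an mRNA gene can come from the mRNA or from any other RNA made from the same strand, for example a tRNA.

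Reads counted in features other than coding exons totalled 13678760 in exo2Δ and 13555082 in WT. The coding exons of exo2 itself held 26 reads in exo2Δ and 251 reads in WT, the direction of the labels, while the rest of the gene held 31 reads in exo2Δ and 3 reads in WT. Summed over the 60 mRNAs, reads outside coding exons numbered 58452 in exo2Δ and 108805 in WT, against 2645 and 3090 reads in coding exons in exo2Δ and WT. The genes pcd1 and SPAC17G6.03 alone held 67.2% of the outside reads in exo2Δ and 80.1% in WT. The other 58 mRNAs held 19181 outside reads in exo2Δ and 21672 in WT.

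The simplest case of another RNA within an mRNA gene was a tRNA, and 4 of the 60 mRNAs shared part of a tRNA gene on their strand. Of the 3649 mRNAs, 5 did so. Reads on a tRNA outside coding exons count towards the WT share that chose the 60, so nothing is read from these counts. The 4 tRNA sequences are shown because a read on them can also be counted in the mRNA gene. They are printed 5′ to 3′ from the RefSeq assembly ASM294v3, read by locus name, with positions as in the deposited table, and capitals mark the bases that the mRNA gene also covers.
tRNA-Leu (SPATRNALEU.03, chrI:3591948-3592044, plus strand, within SPAC17G6.03): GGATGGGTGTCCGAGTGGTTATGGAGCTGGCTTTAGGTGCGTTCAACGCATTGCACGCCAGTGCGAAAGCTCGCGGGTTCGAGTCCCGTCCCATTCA
tRNA-Glu (SPATRNAGLU.01, chrI:718119-718190, minus strand, over the start of lcp1): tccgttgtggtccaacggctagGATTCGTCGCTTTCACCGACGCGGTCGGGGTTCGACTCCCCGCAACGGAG
tRNA-Pro (SPATRNAPRO.01, chrI:365155-365226, plus strand, over the start of bmt2): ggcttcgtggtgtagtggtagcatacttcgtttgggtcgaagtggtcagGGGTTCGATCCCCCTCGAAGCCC
tRNA-Gln (SPBTRNAGLN.04, chrII:355920-355991, plus strand, over the start of SPBC1271.08c): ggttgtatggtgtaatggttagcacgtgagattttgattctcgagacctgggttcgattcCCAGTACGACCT

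SPAC17G6.03, annotated as a phosphoprotein phosphatase (chrI:3590440-3595067, plus strand), covered the whole tRNA-Leu gene within its 2615 nt leader. Its outside part held 33901 reads in exo2Δ and 14412 in WT. Of these, the 97 nt of the tRNA held 33870 in exo2Δ and 14390 in WT, so 99.9% of the outside reads in exo2Δ lay on the tRNA. The tRNA reads were 2.35-fold higher in exo2Δ (95% interval 2.30 to 2.40). Without the tRNA, the outside part held 31 reads in exo2Δ and 22 in WT, and its share of the remaining reads was 44.3% in exo2Δ and 45.8% in WT. Taken without the tRNA, this gene would not have been among the 60.

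The other tRNAs lay over the start of their mRNA genes. The gene lcp1, encoding a cyclin of the L type (chrI:716874-718168, minus strand), shared 50 of the 72 bases of tRNA-Glu. Its outside part held 2029 reads in exo2Δ and 799 in WT, 2.53-fold higher in exo2Δ (2.33 to 2.75), and its coding exons held 32 reads in exo2Δ and 35 in WT. The tRNA-Glu gene held 1918 reads in exo2Δ and 665 in WT, 2.88-fold higher (2.63 to 3.15), and 4 tRNA genes of the reference have this same sequence. Reads with several places were not counted, so a read lying wholly within that sequence would be missing from these counts. How many of these reads reached into the shared bases cannot be read from a table of whole features.

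The gene bmt2, encoding an rRNA methyltransferase (chrI:365204-366442, plus strand), shared the last 23 bases of tRNA-Pro. Its outside reads numbered 594 in exo2Δ and 428 in WT, and its coding reads 60 in exo2Δ and 96 in WT. The tRNA-Pro held nearly the same number in both libraries, 1170 in exo2Δ and 1145 in WT. SPBC1271.08c, an uncharacterized gene (chrII:355980-358079, plus strand), shared the last 12 bases of tRNA-Gln, which are found in 6 tRNA genes of the reference. The whole tRNA-Gln sequence is found in 2, so reads lying wholly within it would also be missing. Its outside reads numbered 164 in exo2Δ and 228 in WT, against 972 in exo2Δ and 1852 in WT on the tRNA. The gene spt20, for a subunit of the SAGA coactivator, held the snoRNA U24 within its trailer, but only 18 of its 180 outside reads in exo2Δ and 10 of its 189 in WT lay on it.

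Noncoding RNAs of other classes also shared the strand of several of the 60 mRNAs. An annotated ncRNA overlapped 8 of the 60 on the same strand (13.3%, against 5.67% of the 3649), an XUT 5 (8.33%, against 2.33%) and a transcript of the class listed as nc-TU 8 (13.3%, against 2.36%). In all, 28 of the 60 shared their strand with another annotated RNA and 32 with none (53.3%, against 77.8% of the 3649). In 10 of them the neighbour was another mRNA over an end of the gene (16.7%, against 13.3%). Reads on such RNAs outside coding exons count towards the WT share that chose the mRNAs. The choice itself therefore favours these overlaps, and nothing is read from the counts. A longer outside part also leaves more room for such RNAs, and its part in these counts was not tested.

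In 6 of the 60, an RNA lying wholly outside the coding exons held most of the outside reads in exo2Δ, and in 5 of these also in WT. Besides SPAC17G6.03, they were mug115, a gene named for its upregulation in meiosis, fhn1, encoding a protein of the eisosomes of the plasma membrane, pdh1, atg43, the mitophagy receptor, and, in exo2Δ only, spc24, for a kinetochore protein. In mug115 the unit novelncTU_276 held 266 of 288 outside reads in exo2Δ and 256 of 280 in WT. In fhn1 the ncRNA SPNCRNA.133 held 466 of 498 in exo2Δ and 728 of 783 in WT. The rest of the outside part held 22 and 24 reads in exo2Δ and WT in mug115 and 32 and 55 reads in exo2Δ and WT in fhn1. In pdh1 the unit novelncTU_436 held 59 of 80 outside reads in exo2Δ and 57 of 65 in WT, and in spc24 the unit novelncTU_174 held 22 of 34 in exo2Δ and 24 of 61 in WT. Such genes were not counted among all mRNAs, so whether 6 of 60 is many cannot be said. The WT reads on these RNAs also count towards the share that chose the genes.

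In the gene atg43 (chrI:5221803-5226054, minus strand), the outside reads of both libraries lay mostly on an XUT. Its outside reads numbered 66 in exo2Δ and 401 in WT, 6.09-fold lower in exo2Δ (4.68 to 8.03), whereas its coding exons held 22 reads in exo2Δ and 17 in WT. The XUT0757, inside its trailer, held 43 reads in exo2Δ and 365 in WT. Within this XUT, the unit novelncTU_363 held 37 reads in both libraries. The other 459 nt of the XUT therefore held 6 reads in exo2Δ and 328 in WT, 54.8-fold lower in exo2Δ (24.9 to 150.4), so that nearly the whole difference of the gene lay in these bases. The WT reads on this XUT are also the reads that placed atg43 among the 60, since without the XUT its outside part held 36 reads in WT, against 17 in coding exons. The difference is therefore given as a description.

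**Figure D1:**
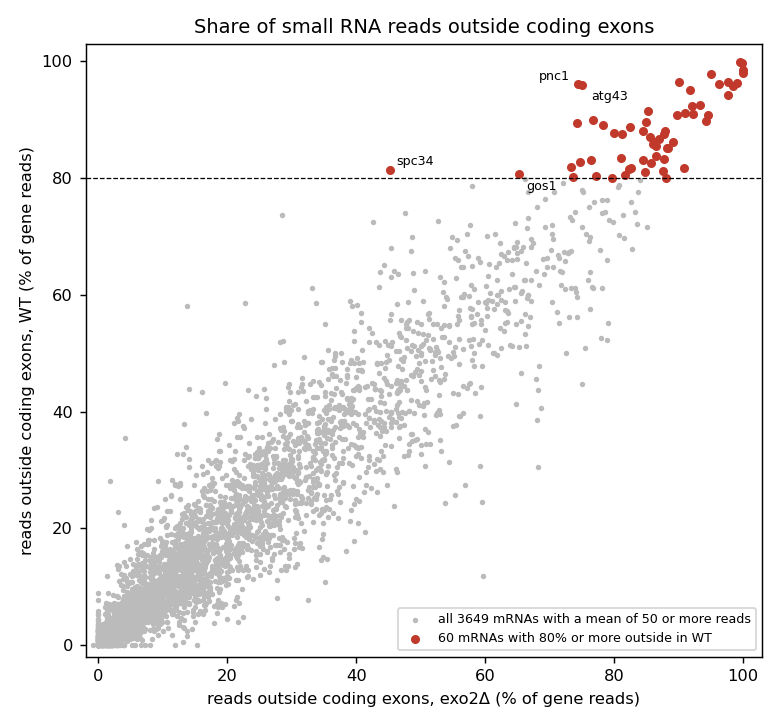
Share of the reads of each gene that lay outside coding exons, in percent, in exo2Δ (horizontal axis) and WT (vertical axis). Red points are the 60 mRNAs, grey points all 3649 mRNAs that averaged 50 reads or more, and the dashed line is the 80% of WT reads that chose the 60. Most red points stay above 80% on the exo2Δ axis, and spc34, at 45.2% in exo2Δ, lies farthest to the left.

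The exo2Δ share was not used for the choice, although the mean of both libraries was. Its median over the 60 mRNAs was 86.5% in exo2Δ, with quartiles of 81.1% and 91.8%, against 15.1% over all 3649 mRNAs in exo2Δ. In WT the 2 medians were 87.7% and 15.0%. In exo2Δ, 47 of the 60 still had at least 80% outside (78.3%), as did 59 of all 3649 (1.62%), so that the 47 made up 79.7% of the 59. The plot of shares in both libraries shows this. The Wilson intervals of the 2 libraries overlapped in 51 of the 60. The share was higher in exo2Δ with intervals apart in 3 (tif51, lcp1 and bmt2), which is 5%, against 4.52% of the 3649, and lower in 6 (pcd1, atg17, pnc1, atg43, gid8 and spc34), which is 10%, against 2.27%. Because a high WT share chose the mRNAs, the choice itself favours a lower share in exo2Δ, and nothing is read from the 6. Of these, pnc1, atg43, gid8 and spc34 were under 80% in exo2Δ.

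The highest exo2Δ shares were 100% in rpl1202, 100% in SPAC9E9.02 (94.7% to 100%, from 68 reads) and 99.9% in SPAC17G6.03. The lowest were 45.2% in spc34, which encodes a DASH complex subunit that couples kinetochores to microtubules (29.2% to 62.2%, against 81.3% in WT), 65.3% in gos1, for a SNARE of the Golgi, and 73.3% in mrp17, for a mitochondrial ribosomal protein. At the threshold, the 3 mRNAs just inside it were inh1 (88.1% in exo2Δ and 80% in WT), pex7 (79.7% in exo2Δ and 80.1% in WT) and esc1 (73.7% in exo2Δ and 80.2% in WT). The 3 just outside it were the kinase gene ksg1 (66.1% in exo2Δ and 79.8% in WT), the membrane proteolipid gene pmp31 (84.1% in exo2Δ and 79.7% in WT) and epl1, for a histone acetyltransferase subunit (72.0% in exo2Δ and 79.2% in WT).

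The 60 mRNAs had short coding sequences and long annotated ends. Their median coding length was 438 nt, against 1323 nt over the 3649, and their median length outside coding exons was 1226 nt, against 599 nt. The share of the gene length outside coding exons had a median of 73.8%, against 32.5%, and was at least 80% in 23 of the 60 (38.3%, against 2.03%). The longest outside stretch was the trailer in 42 (70%, against 57.1%), the leader in 15 (25%, against 31.3%) and the introns in 3. The trailer had a median of 784 nt, against 260 nt, and was at least 1000 nt long in 24 (40.0%, against 9.15%). Coding exons numbered 1 in 38 of the 60 (63.3%, against 53.7%). At even coverage a longer outside part collects a larger share of the reads, and the part of length in the choice was not tested.

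**Figure D2:**
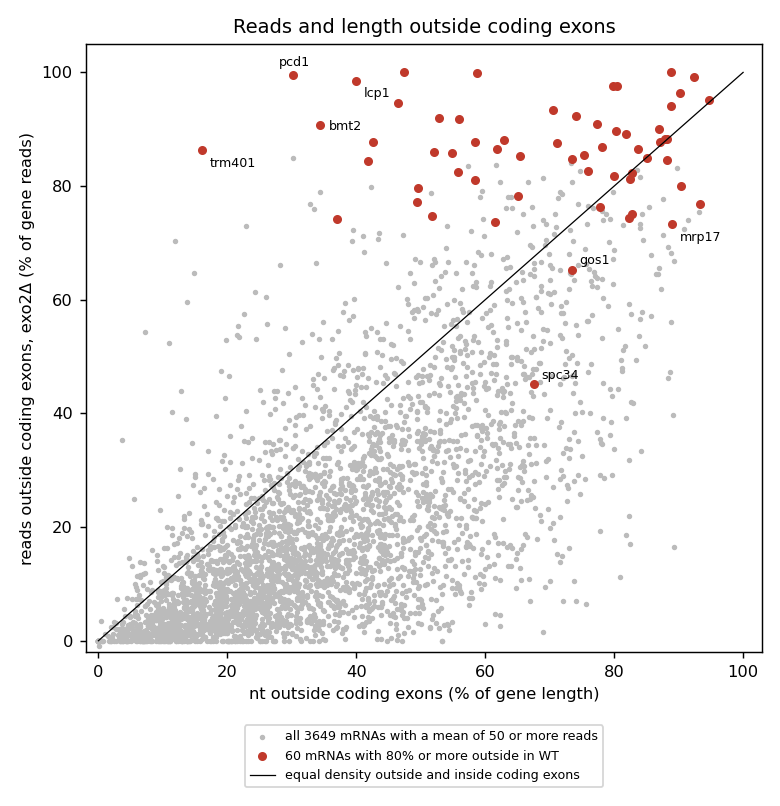
Share of the gene length outside coding exons (horizontal axis, percent) and share of exo2Δ reads outside coding exons (vertical axis, percent) for the 60 mRNAs (red) and all 3649 mRNAs (grey). On the line, reads were as dense outside as inside coding exons. trm401, pcd1, bmt2 and lcp1 lie far above it, mrp17 below it, and most grey points lie below it.

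Density, in reads per nt, takes the length out. In exo2Δ, the outside part was denser than the coding exons by a median of 2.84 times in the 60 mRNAs, while over all 3649 the median was 0.372 times. In WT, which chose the members, the medians were 3.55 and 0.368 times. The ratio in exo2Δ was above 2 in 35 of the 60 (58.3%, against 3.40% of the 3649), between 1 and 2 in 13, and below 1 in 12. The 12 below 1, among them mrp17 (0.338), ecl1 (0.240), alp41 (0.424) and cwf14 (0.732), had reads denser in coding exons than outside, and at least 67.5% of their length was outside. The ratio was above 10 in 10 of the 60: pcd1, SPAC17G6.03, lcp1, hht1, trm401, bmt2, cbf12, SPBC1271.08c, and rpl1202 and SPAC9E9.02, whose coding exons had no exo2Δ read. Of these, SPAC17G6.03, lcp1, bmt2 and SPBC1271.08c shared tRNA bases. Only 0.86% of the coding windows of rpl1202 and 63.8% of those of hht1 were unique. Coding bases that reads with 1 place cannot reach lower the coding density. The genes trm401 and pcd1 stood apart from the length pattern, with only 16.1% and 30.2% of their length outside.

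**Figure D3:**
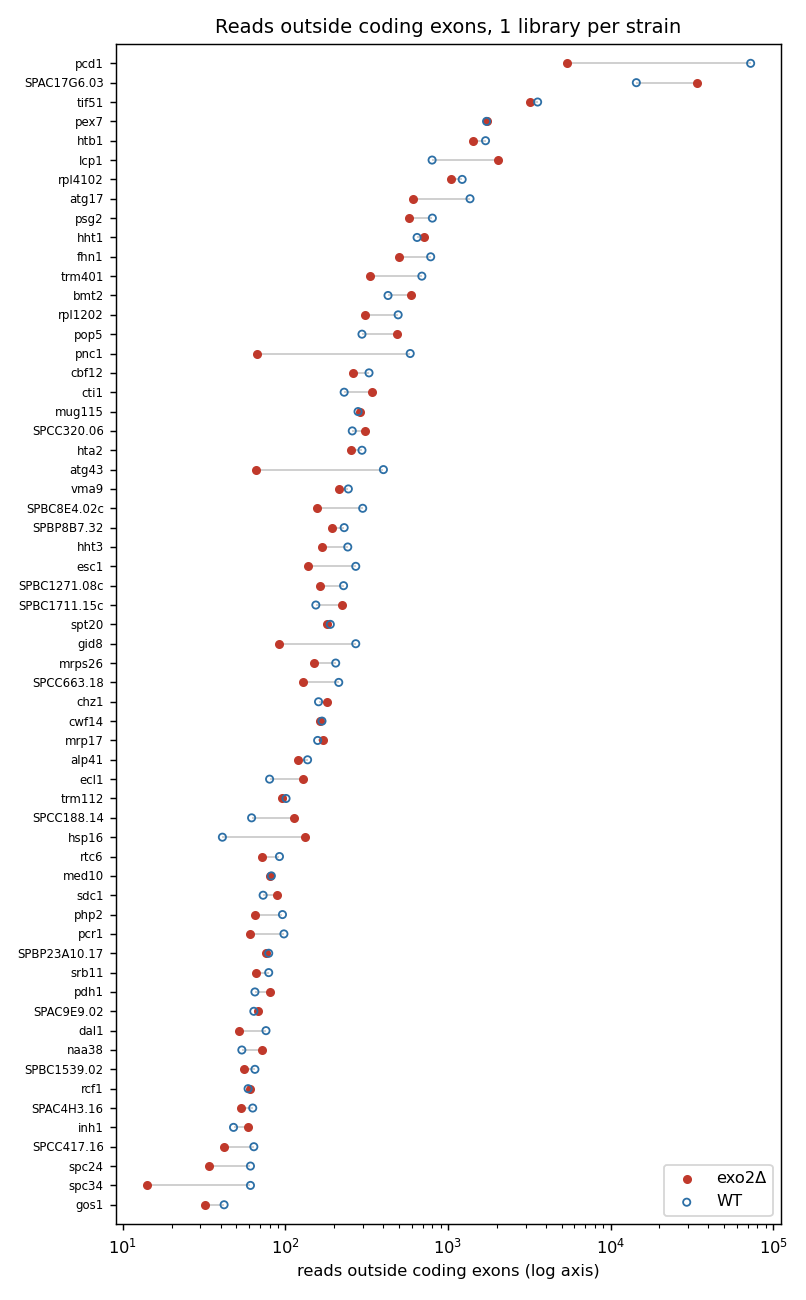
Reads outside coding exons of each of the 60 mRNAs in exo2Δ (filled red) and WT (open blue), on a log axis, ordered by their mean. Each strain has 1 library and no error bar is drawn. pcd1 and SPAC17G6.03 lie above all others, in opposite directions, and pnc1, atg43, gid8 and spc34 have the widest gaps towards fewer reads in exo2Δ after pcd1.

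The mRNA with the most outside reads in WT was pcd1 (SPAC6G9.05, chrI:3253202-3254430, plus strand), encoding a coenzyme A diphosphatase, a hydrolase that splits CoA. Its outside part, 311 nt of leader and 60 nt of trailer, held 5370 reads in exo2Δ and 72721 in WT. The reads were 13.6-fold lower in exo2Δ (13.2 to 13.95). Its coding exon held only 27 reads in exo2Δ and 40 in WT. No other annotated RNA shared its strand, so the table places these reads on no other feature of that strand. The density outside was 14.4 reads per nt in exo2Δ and 196.0 in WT, against 0.0314 and 0.0466 reads per nt in the coding exon in exo2Δ and WT.

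The outside reads of pnc1 were also lower in exo2Δ. In pnc1 (SPBC365.20c), for the nicotinamidase of NAD salvage, the outside part held 67 reads in exo2Δ and 586 in WT, 8.77-fold lower (6.80 to 11.5), with 23 coding reads in each library. Most of its outside part was the 2730 nt trailer. In dal1, for ureidoglycolate hydrolase, the outside part held 52 reads in exo2Δ and 76 in WT. In all 3 genes the coding exons held few reads. Their WT outside reads also chose them, so the lower exo2Δ counts are given as a description.

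Across all 60, more outside parts were lower than higher in exo2Δ. Because the mRNAs were chosen on their WT share outside, the choice itself favours lower exo2Δ counts outside and higher exo2Δ counts in coding exons. Nothing is read from the counts below, or from single members with lower outside reads in exo2Δ. The median log2 ratio of outside reads, exo2Δ over WT after adding 1 read to each, was -0.22, against -0.08 for the 1478 of the 3649 that averaged 30 or more outside reads. It was over 2-fold higher in 3 (5%, against 3.92% of the 1478) and over 2-fold lower in 7 (11.7%, against 5.41%). The interval of the fold lay above 1 in 10 of the 60 (16.7%, against 16.2% of the 1478), below 1 in 25 (41.7%, against 22.7%) and included 1 in 25. For the whole gene, the median log2 ratio was -0.20, against -0.145 for the 3649, and 3 were over 2-fold higher (5%, against 1.78% of the 3649) and 7 over 2-fold lower (11.7%, against 3.86%). In coding exons, 47 of the 60 averaged 10 or more reads, with a median log2 ratio of -0.04, against -0.15 for the 3636 mRNAs with as many. Of the 47, 2 were over 2-fold higher (4.26%, against 2.09%) and 5 over 2-fold lower (10.6%, against 4.90%). These are small numbers of genes, and they move with the scaling: with the libraries set to equal sn(o)RNA reads the whole-gene counts were 2 higher and 10 lower, and set to the median mRNA ratio, 4 higher and 5 lower (36 higher and 315 lower, and 100 higher and 78 lower, over the 3649).

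**Figure D4:**
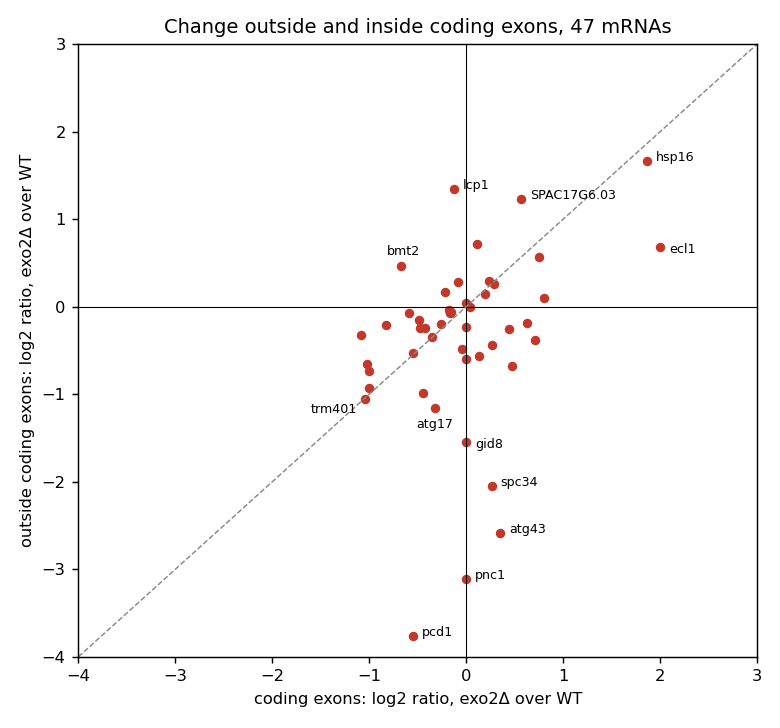
log2 ratio of exo2Δ over WT in coding exons (horizontal axis) and outside them (vertical axis) for the 47 of the 60 mRNAs that averaged 10 or more coding reads. The dashed line marks equal ratios. pcd1, pnc1, atg43, spc34 and gid8 lie low, with coding log2 ratios between -0.55 and 0.35, and hsp16 is high in both.

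The plot of ratios shows members whose outside and coding reads differed together and members where only the outside reads differed. hsp16, for a small heat shock protein (SPBC3E7.02c), held 132 outside reads in exo2Δ and 41 in WT, 3.21-fold higher in exo2Δ (2.25 to 4.68), and its coding exon held 39 reads in exo2Δ and 10 in WT, 3.89-fold higher (1.91 to 8.74). trm401, for a tRNA cytosine methyltransferase, was 2.08-fold lower outside (1.82 to 2.38, from 333 reads in exo2Δ and 691 in WT) and 2.08-fold lower in coding exons (1.49 to 2.94, from 53 in exo2Δ and 110 in WT), so that its share outside was 86.3% in both. In gid8, for a subunit of a ubiquitin ligase, the difference lay outside the coding exons, with 92 outside reads in exo2Δ and 271 in WT, 2.95-fold lower (2.32 to 3.78), and 32 coding reads in both. Likewise spc34 held 14 outside reads in exo2Δ and 61 in WT, 4.37-fold lower (2.41 to 8.45), with 17 coding reads in exo2Δ and 14 in WT. WT outside reads chose these genes, so their lower outside reads in exo2Δ are given as a description. Of the other genes with the largest ratios, SPAC17G6.03 and lcp1 carried tRNA bases, and SPCC188.14, which shares 606 nt of its trailer with a pseudogene, held 113 outside reads in exo2Δ and 62 in WT. The gene pop5, for a subunit of RNase P and RNase MRP, held 489 in exo2Δ and 296 in WT, 1.65-fold higher (1.42 to 1.91), with 12 coding reads in exo2Δ and 11 in WT.

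By known role, the 60 mRNAs were diverse, and the groups below were drawn after the values were seen. Histones gave 4: htb1 (H2B), hht1 and hht3 (H3) and hta2 (H2A), with 81.0% to 93.4% outside in exo2Δ and 83.4% to 92.6% in WT. The outside part of htb1 held 1436 reads in exo2Δ and 1703 in WT, and that of hht1 715 in exo2Δ and 646 in WT. The outside parts of hht3 and hta2 held 167 and 252 reads in exo2Δ, against 242 and 296 in WT. The remaining chromatin genes were the histone chaperone gene chz1, sdc1, for a subunit of the Set1 methyltransferase complex, and spt20.

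Over all 10 histone genes, the share outside had a median of 77.6% in exo2Δ and 70.2% in WT. All 9 core histone genes lay between 55.2% and 93.4% in exo2Δ and between 49.5% and 92.6% in WT, above the median of 15.1% of all mRNAs in exo2Δ. The gene pht1, for the variant H2A.Z, lay at 10.95% in exo2Δ and 11.8% in WT. Of the gene length, 66.8% of pht1 and 47.2% to 70.5% of the core histone genes lie outside coding exons. The exact 20-nt windows of the core histone coding exons were found once in the genome in 63.8% to 100% of cases, and reads with several places were not counted. The coding counts of the repeated histone genes are uncertain for this reason. The study allowed mismatches in mapping, so exact windows can overstate how much of these exons could be counted. In htb1, 100% of coding windows were unique, and in the other 3 histone genes of the 60 they were 63.8% to 87.0%. The part of repeated coding sequence in these shares was not tested. The core histone genes hhf1, hhf2, hhf3 and hht2 had shares in exo2Δ 5.1 to 14.6 percentage points above their WT shares. Of these, the Wilson intervals of exo2Δ (68.2% to 79.5%) and WT (53.6% to 65.4%) were apart in hhf1 alone. The share was lower in exo2Δ in hta1 (67.1%, against 68.3% in WT), hta2 (81.0%, against 83.4%) and hht1 (92.0%, against 92.3%). It was slightly higher in exo2Δ in hht3 (86.1%, against 85.8%) and htb1 (93.4%, against 92.6%).

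**Figure D5:**
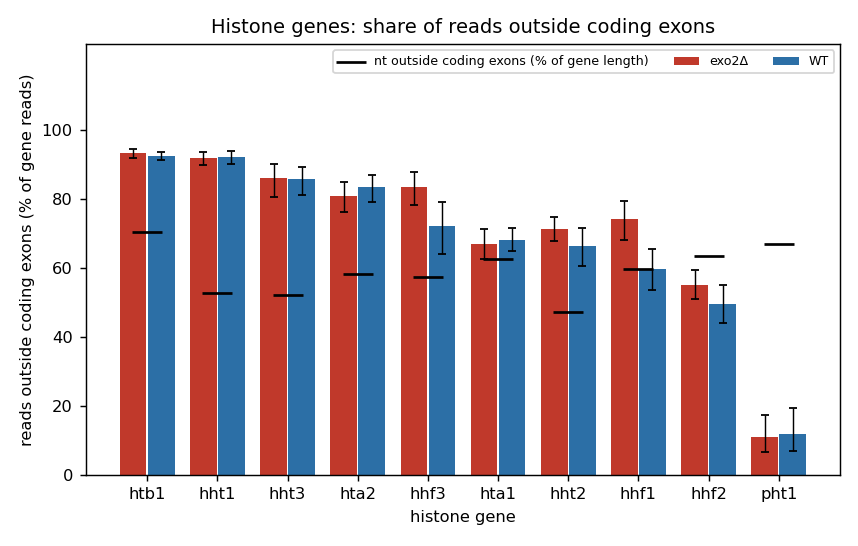
Share of reads outside coding exons, in percent, for the 10 histone genes in exo2Δ (red) and WT (blue), with 95% Wilson intervals of counting error; black marks give the share of gene length outside coding exons. The 9 core histone genes lie at 55.2% or more in exo2Δ and pht1 at 10.95%.

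The ribosome and translation gave 3. tif51, for the elongation factor eIF5A, held 3198 outside reads in exo2Δ and 3561 in WT, with 531 coding reads in exo2Δ and 746 in WT. rpl4102 encodes a very short ribosomal protein and held 1037 outside reads in exo2Δ and 1223 in WT. rpl1202 held 307 outside reads in exo2Δ and 494 in WT but 0 coding reads in exo2Δ, which allows up to 0.977% of its reads, and 10 in WT. Only 0.86% of its coding windows were unique, so that its coding count is uncertain and its share outside says little. Of the 138 cytosolic ribosomal protein genes past the mean, 2 were among the 60 and the list had a median share of 9.62% in exo2Δ and 5.35% in WT. Of 32 translation factor genes 1 was, and of 19 genes of decapping and decay none, with medians of 12.5% and 26.0% in exo2Δ. Among 3 phosphate-responsive genes and 5 genes known for long mRNA leaders, none was. Of all 3649 mRNAs past the mean 60 were chosen, and at that share lists of these sizes would hold few or none. Nothing is read from these list counts. All 6 measured targets of the RNA elimination factor Mmi1 lay under the mean of 50 reads. Of the 59 that could be looked up in the reference, 5 had under 90% unique coding windows: rpl1202, hht1, hht3, rpl4102 and hta2. Exact windows miss near copies, so more of the 59 may be affected.

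RNA processing and modification gave 6: trm401, bmt2 and pop5, above, trm112, for an activator of methyltransferases, cti1, for an exosome-associated protein, and cwf14, for a splicing factor. All 6 had at least 80% outside in exo2Δ. Transcription gave 6, which were pcr1, php2, cbf12 and esc1, for DNA-binding factors, and med10 and srb11, for Mediator subunits. Their log2 ratios of outside reads ranged from -0.98 to -0.04, and 3 of them had at least 80% outside in exo2Δ.

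Genes of mitochondria gave 6: mrps26, mrp17 and rtc6 for ribosomal proteins, rcf1, for a factor of cytochrome c oxidase, SPCC417.16, annotated as a subunit of NADH:ubiquinone reductase, and inh1, for the inhibitor of the ATP synthase. Autophagy gave atg43 and atg17, a protein of the complex that starts autophagy, whose outside part held 612 reads in exo2Δ and 1367 in WT, 2.24-fold lower in exo2Δ (2.03 to 2.47), with 55 coding reads in exo2Δ and 69 in WT. Cell division and the cytoskeleton gave spc24, spc34 and alp41, a tubulin folding factor, and membranes and organelles gave pex7, gos1, fhn1 and vma9, a V-ATPase subunit. pex7, for the receptor that imports peroxisomal proteins, had nearly the same outside level in both libraries, 1732 reads in exo2Δ and 1728 in WT.

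Of the other named genes, psg2 held 574 outside reads in exo2Δ and 802 in WT, and ecl1, known for extending chronological lifespan, 129 in exo2Δ and 80 in WT. naa38, for a subunit of an N-terminal acetyltransferase, completes the named genes with hsp16, gid8, lcp1, mug115 and pdh1. Of the 60, 13 had no symbol. Besides SPAC17G6.03 and SPCC417.16, these were SPCC320.06, SPBP8B7.32, SPCC663.18, SPBC1271.08c, SPBC1711.15c, SPBP23A10.17, SPBC1539.02, SPAC9E9.02, SPAC4H3.16, SPCC188.14 and SPBC8E4.02c. At least 80% of the exo2Δ reads lay outside in 12 of the 13, all except SPCC417.16 (76.4%).

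The other strand was shared as well. An mRNA on the opposite strand overlapped 35 of the 60 by at least 50 nt (58.3%, against 35.9% of the 3649), and an XUT 15 (25%, against 19.2%). Here too a longer outside part leaves more room for overlaps, and its part in these counts was not tested. The counts in the table are per strand.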

How the data were processed

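The authors trimmed adapters with cutadapt, kept with Bowtie those reads that mapped to 1 place only, and deposited, feature by feature, a signal in tags per nt. The build named in the submitters' notes is ASM294v2. Tag densities were deposited for 19343 features. The study kept a range of read lengths in its own small RNA analysis, and whether the deposited signal was limited in the same way is not given in the sources used here. Multiplied by feature length, the deposited signal was a whole number of reads in WT, and in exo2Δ a whole multiple of 0.998, in 100% of rows (tolerance 0.001). Reads were recovered from these steps and compared with that factor kept. No value column belonged to another sample (0).

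Outside reads are those of the gene minus those of its coding exons. Shares have Wilson intervals and folds exact binomial intervals (95%). These cover counting error only, since each strain had 1 library. They treat reads as independent, and the reads carry no molecular identifiers to remove copies, so the intervals may be too narrow. Log2 ratios add 1 read to each library. Over 2-fold is called higher or lower. Coding windows of 20 nt were matched exactly to ASM294v3, where 98.4% of 10190 coding exons had unchanged coordinates and 59 of the 60 mRNAs were found. Gene products came from the same annotation.

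Members and lists were chosen with earlier results of these data known. Genes named are exo2, the 10 members with the most outside reads, the 5 with the largest and the 5 with the smallest outside ratio, those sharing a tRNA or snoRNA, 3 on each side of the threshold, those with the 3 highest and 3 lowest exo2Δ shares, and list members. The other names were chosen after their values were seen. Alternatives changed the threshold, the mean, the library that chose the members, the scaling, the pseudocount (0.5 or 5 reads) and the RNAs shared. Scripts in Python 3.11.15 with pandas 2.3.3 and scipy 1.17.1 were tested on simulated data.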

Additional observations from a re-analysis of the deposited data

How the results depend on the processing

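The number of mRNAs chosen depended on the threshold. It was 60 at 80%, 108 at 70% and 21 at 90%, and 32 without any other RNA on the strand, an alternative chosen after seeing the data, as was that of keeping the 54 with 90% or more unique coding windows. A mean of 20 or 100 reads gave 87 and 41. The median exo2Δ share was 80.8% at 70% and 94.6% at 90%. Scaled on sn(o)RNAs, the median log2 ratio was -0.47 outside and -0.28 in coding exons. Scaled on the median mRNA ratio, the coding median changed sign, to 0.11. These follow from the scaling itself, which moves all log2 ratios by -0.24 and 0.15. With members chosen by the exo2Δ share, the coding median was -0.29 and 3 mRNAs, against 7, were over 2-fold lower. Choosing by that share itself favours lower coding counts in exo2Δ, and its part in these differences was not tested. Without genes sharing a tRNA, rRNA or sn(o)RNA, 1 mRNA, against 3, was over 2-fold higher.

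For the 28 members named by rule, 140 ratios were taken under other scalings and pseudocounts. Of these, 119 moved by less than their counting interval and 21 by more, 13 under sn(o)RNA and 8 under median mRNA scaling. Each scaling adds about the same shift to every log2 ratio, so which ratios moved past their interval follows from their read numbers. Nothing is read from this tally. The sign changed in 6 of the 140, in 5 members whose intervals include no change (SPAC9E9.02, hht1, mrp17, pex7 and spt20). No paired analysis was possible because there was 1 library of each strain. Genes with few reads have wide intervals, and no spread between cultures can be given.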
